A study of Mus musculus with 6 samples.

Results

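Cytochrome P450 genes encode haem-containing enzymes that insert oxygen into steroids, retinoic acid, vitamin D, sterols, fatty acids and foreign compounds. Their members were taken as every row whose symbol starts with Cyp followed by a digit, which gave 100 of the 21526 genes in the count table. The steroidogenic members were kept apart, and the others were split into retinoic acid, vitamin D, sterol and bile acid, and orphan members and families 1 to 4. Families 1 to 3 are best known for metabolism of drugs, pollutants and dietary compounds in liver and gut, and family 4 for oxidation of the ends of fatty acids and eicosanoids. P450 enzymes of the endoplasmic reticulum receive electrons from P450 reductase or cytochrome b5, and those of mitochondria from ferredoxin and its reductase. Breakdown of retinoic acid by the Cyp26 enzymes limits local retinoid signalling in many epithelia.

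RNA was measured in gastric corpus epithelium released with EDTA and used without culture, in 3 libraries of normal stomach (Normal 1 to 3) and 3 libraries of Yap-activated gastric cancer (Yap-activated 1 to 3). The Normal mice were WT. The mice with Yap-activated gastric cancer carried CluCreERT2, a tamoxifen-dependent Cre recombinase named for Clu, R26rtTA, a doxycycline-dependent activator named for the R26 locus, and HA-Yap. Both groups were given 2 mg tamoxifen by intraperitoneal injection on 5 days and then ate doxycycline (DOX) food for the last 14 days, so that both agents are shared. The Normal mice lacked all 3 alleles, and effects of CluCreERT2 and R26rtTA cannot be told apart from those of HA-Yap. Cre acts in cells in which the Clu-named driver is on, and the labels do not say how many cells of each library had recombined. The labels give neither age nor sex. The labels do not say that each library came from a separate mouse, so the spread behind each p-value is that between libraries and may be technical.

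Library totals ran from 25580734 to 48440033 counts. Of 14600 genes that passed the filter on low counts, 59.5% were called, 29.7% lower and 29.8% higher in the Yap-activated libraries. Yap1 was called higher, at 104 CPM (library-size-scaled counts, by TMM) in Normal and 2068 CPM in Yap-activated libraries. All 8 parietal, all 4 chief and all 4 surface mucous cell markers in the table were lower. Summed marker levels went from between 23180 and 31950 to between 197 and 262 CPM for parietal cells, and from between 43000 and 50220 to between 1377 and 2113 CPM for surface mucous cells. Macrophage markers summed to 128 to 133 CPM in Normal and 335 to 669 CPM in Yap-activated libraries, with 4 of 6 called higher. Cd14 and Lyz2 made up most of the Yap-activated sums. Csf1r and Lyz2 lost their calls on leaving out any Normal library or Yap-activated 3 (edgeR adjusted p from 0.0587 to 0.0973). Lyz2 also did so without Yap-activated 1 (0.0526). Adgre1 and Mrc1 were not called, but were lower without Yap-activated 3 (log2 fold changes -0.99 and -0.68, edgeR adjusted p = 0.0160 and 0.0297). RNA of all cells was measured together, so fewer cells of a type and less RNA per cell cannot be told apart. The part of these cell types in any P450 result was not tested.

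Of the 100 P450 genes, 42 could be tested. Yap-activated gastric cancer had lower RNA of 21 of them, 50.0% against 29.7% of all genes tested, and higher RNA of 5, 11.9% against 29.8% (edgeR quasi-likelihood test, Benjamini-Hochberg adjusted p below 0.05). A member could be tested only where at least 3 libraries, from either group, had enough counts, so these numbers describe the tested members and not all 100. Of the 21 falls 13 lay in family 2, 5 in family 4, 2 among the vitamin D members and 1, Cyp39a1, among the sterol and bile acid members. The 5 that rose were Cyp21a1 of steroid synthesis, Cyp26a1 and Cyp26b1 of retinoic acid breakdown, and Cyp4f40 and Cyp4f18 of family 4. The other 16 tested members did not pass the threshold, with log2 fold changes between -0.98 and 2.58. The median log2 fold change was -1.0 over the tested members and 0.01 over all genes tested. The 21 lower members fell by a median of 1.98 on the log2 scale, and their range was -1.02 to -6.68. Yap-activated and Normal libraries did not overlap for 20 of these 21, Cyp4f13 being the exception, and for 4 of the 5 higher members, Cyp4f18 being the exception. Over all genes tested, groups did not overlap in 67.6%, with Yap-activated libraries below in 34.4% and above in 33.2%. Of the 21 lower members, 12 had their lowest level in Yap-activated 1.

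**Figure D1:**
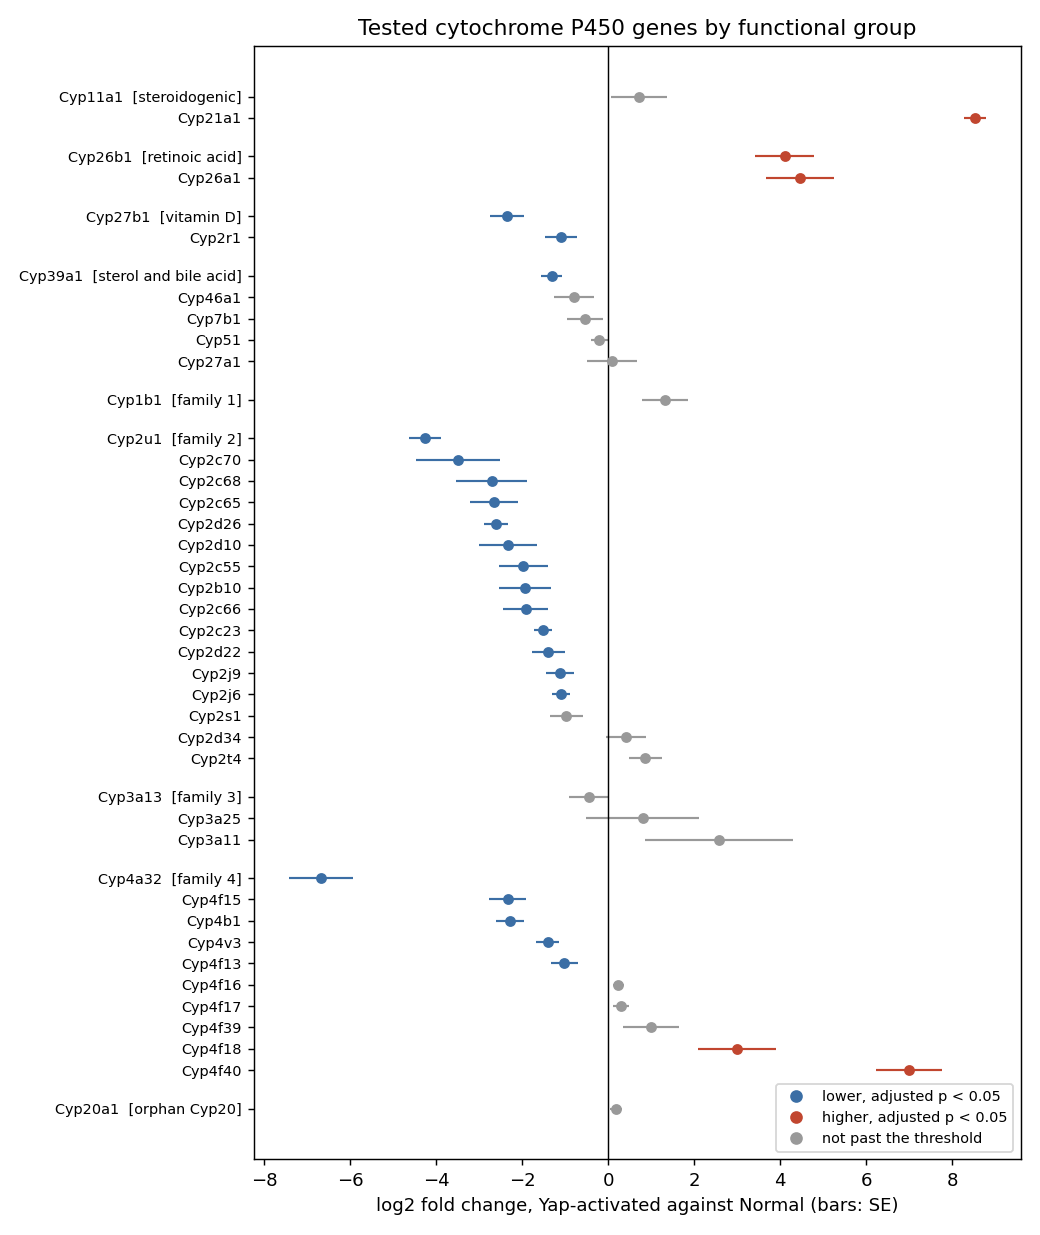
Log2 fold change of Yap-activated against Normal (x axis) for the 42 tested P450 genes, by functional group (y axis); points are estimates of edgeR's fit, bars their SE, and colours the call. Family 2 lies left of 0 apart from Cyp2d34 and Cyp2t4, while Cyp21a1 (8.53), Cyp4f40 (7.0), Cyp26a1 (4.46) and Cyp26b1 (4.10) lie far right.

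Summed over all 100 members, P450 RNA stood at 1159, 1372 and 1364 CPM in Normal and at 534, 925 and 903 CPM in Yap-activated libraries. Yap-activated 1 was the lowest, and the groups did not overlap. Before scaling, P450 genes held 0.0928%, 0.119% and 0.117% of all counts in Normal and 0.0616%, 0.110% and 0.110% in Yap-activated libraries. On that scale Normal 1 lay below Yap-activated 2 and 3, so that the groups overlapped. Levels of different genes were compared as CPM per kb of exon. By CPM per kb Cyp2s1 ranked first in all 6 libraries, with 36.5%, 33.6% and 38.9% of the P450 sum in Normal and 18.4%, 32.5% and 34.6% in Yap-activated libraries. Cyp2c65, Cyp2j6 and Cyp51 followed in each Normal library. In Yap-activated libraries the genes after Cyp2s1 were Cyp21a1, Cyp51 and Cyp2j6, with Cyp51 ahead of Cyp21a1 in Yap-activated 3. Cyp21a1 held at most 0.0262% of the per-kb sum in a Normal library and 15%, 13.1% and 12.8% in the Yap-activated ones, and moved from ranks 46, 42 and 38 to ranks 2, 2 and 3.

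**Figure D2:**
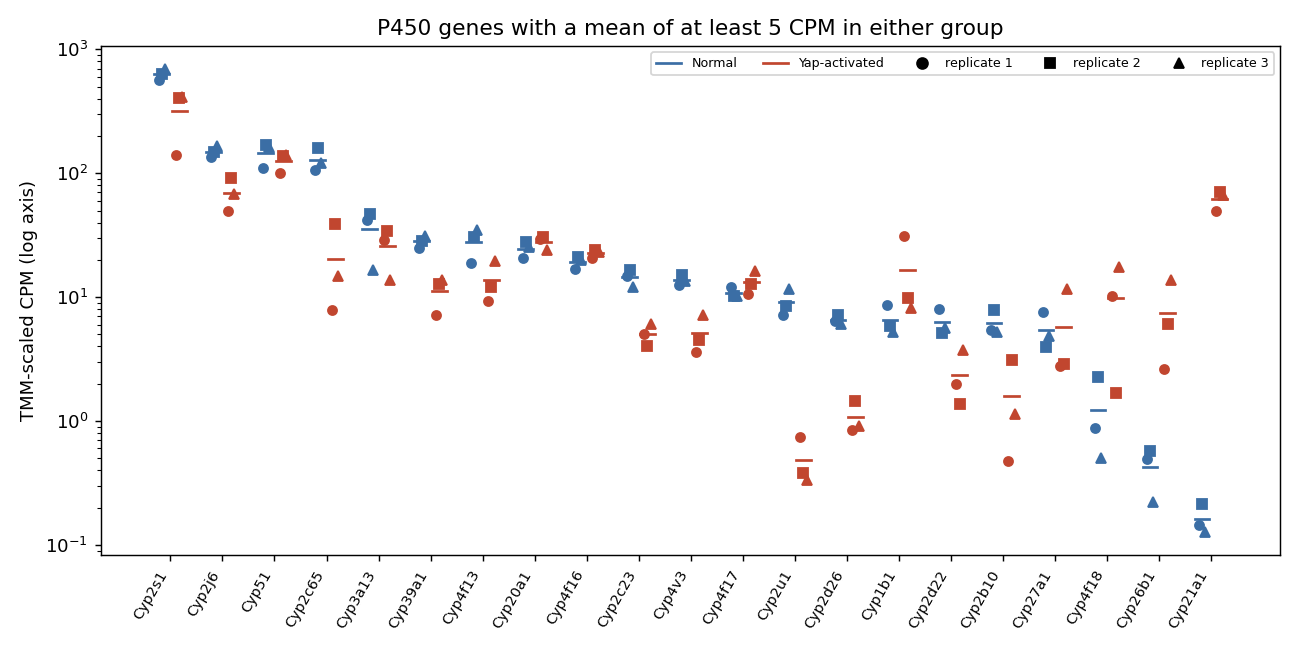
TMM-scaled CPM (y axis, log scale) of each library for the P450 genes with a mean of at least 5 CPM in either group (x axis); marks are libraries, shapes replicate numbers, lines group means. Cyp2s1 has the highest CPM, at 569.5 to 693 CPM in Normal, and Cyp21a1 goes from under 0.3 to between 49.5 and 71.2 CPM.

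Steroid synthesis was represented by Cyp21a1, which hydroxylates progesterone on the way to aldosterone and corticosterone and is best known from the adrenal cortex. Its RNA stood at 0.146, 0.214 and 0.126 CPM in Normal and at 49.5, 71.2 and 66.3 CPM in Yap-activated libraries, from raw counts of 5, 9 and 4 against 1461, 2984 and 3563. Every Yap-activated library lay far above every Normal one. The log2 fold change was 8.53 (SE 0.25, edgeR adjusted p = 4.58e-07), a 385-fold difference of means. Cyp21a1 (ENSMUSG00000024365) lies at chr17:34801348-34804561 on the minus strand (GRCm38). Of the 50-base stretches of its exons, 23.8% also occur in another gene, mostly the pseudogene Cyp21a2-ps, so the count can hold reads of that copy. Its exons also overlap the pseudogene Tnxa on the opposite strand by 102 bases. Neighbouring genes, chosen after their values were seen, did not move alike: Tnxb fell by a log2 value of 2.06 (SE 0.19), Stk19 rose by 0.61 (SE 0.12), and C4b stood at 0.50 and did not pass the threshold, though it did without Yap-activated 1 (0.66, edgeR adjusted p = 0.0394).

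No other steroidogenic member was called. Cyp11a1, which cuts the side chain of cholesterol in the first step, stood at 0.583, 0.689 and 0.253 CPM in Normal and at 0.881, 0.238 and 1.40 CPM in Yap-activated libraries, which overlapped (log2 fold change 0.71, SE 0.64, edgeR adjusted p = 0.367). Of the 4 other steroidogenic members none could be tested. Cyp17a1, which makes androgen precursors, had 28 counts over the Normal and 2 over the Yap-activated libraries, a ratio of 16.2 (exact 95% interval 4.09 to 141, counting error only) in the direction opposite to Cyp21a1. Cyp11b1, of the last step to corticosterone, had 0 counts in Normal and 8, 0 and 4 in Yap-activated libraries, which overlapped at 0. Set against a floor of 3 counts over the Normal group, the ratio was 3.45, which takes no account of counting error. Exons of Gml2 on the opposite strand overlap 9.0% of Cyp11b1 exon bases, and reads of both cannot be told apart if the counting ignored strand. Cyp11b2 had 0 counts throughout, and Cyp19a1, the aromatase that makes oestrogens, had 1.

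Of 27 listed partners of steroid synthesis, 15 were tested, of which 6 fell and 3 rose (40% and 20.0%, against 29.7% and 29.8% of all genes). The fall of Hsd17b12 was not called on leaving out any library other than Normal 1. The rise of Scarb1 was not called on leaving out any library other than Yap-activated 1. Srd5a3 lost its call without Normal 2, Normal 3 or Yap-activated 2. Hsd17b2 was called higher without Yap-activated 1, and Hsd11b1 without Yap-activated 2. Hsd17b6, a steroid dehydrogenase, fell by 6.22 (SE 0.43; log2, as for all changes of partners), from 15.5 ± 7.48 to 0.202 ± 0.0289 CPM (SD, n = 3). Hsd17b11 fell by 1.07 (SE 0.15). Tspo, a cholesterol-binding protein of the outer mitochondrial membrane, rose by 1.32 (SE 0.12). Hsd11b2, which inactivates corticosterone, rose by 2.35 (SE 0.51), with 5.21, 4.30 and 3.79 CPM in Normal and 8.95, 39.2 and 19.7 CPM in Yap-activated libraries, and a value of 1.69 without Yap-activated 2. Star, which carries cholesterol into mitochondria, stood at -0.11 and did not pass the threshold. The Hsd3b genes, several of whose enzymes make progesterone, reached at most 0.130 CPM in any library. Of the markers of the adrenal cortex, Mc2r, the receptor of the hormone ACTH, was at 0 in all but Yap-activated 3 (0.0372 CPM). Nr5a1, the master regulator of steroid-making cells, stood at 0, 0.0475 and 0 CPM in Normal and at 0.407, 0.0954 and 0.0744 CPM in Yap-activated libraries. Its counts were 0, 2 and 0 against 12, 4 and 4. Mrap, the partner of Mc2r, stood at 0 in Normal and at 0.0339, 0.0238 and 0.0744 CPM in Yap-activated libraries, from 1, 1 and 4 counts. Neither gene had enough counts to be tested. Yap-activated libraries lay above without overlap for both, as they did for 33.2% of all genes tested. The summed level of the list was 29.2 to 31.6 CPM in Normal and 35.8 to 46.2 CPM in Yap-activated libraries, most of it Fdx1 and Star, and its part in the Cyp21a1 values was not tested. Of 6 adrenal markers 3 were tested, and Akr1b7 and Fdx1 rose, by 3.83 (SE 0.68; 4.56 without Normal 2) and 0.58 (SE 0.13).

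RNA of both tested retinoic acid-degrading enzymes rose. Cyp26a1, which hydroxylates retinoic acid and is itself induced by it, stood at 0, 0.0238 and 0.0632 CPM in Normal and at 0.915, 0.310 and 0.837 CPM in Yap-activated libraries. Its counts were 3 over the Normal and 85 over the Yap-activated libraries, a ratio of 24.5 (exact 95% interval 8.09 to 121, counting error only). The fitted log2 fold change was 4.46 (SE 0.79, edgeR adjusted p = 0.00187), and 5.41 without Normal 3. Cyp26b1, the form known from mesenchyme and skin, stood at 0.495, 0.570 and 0.221 CPM in Normal and at 2.61, 6.06 and 13.7 CPM in Yap-activated libraries. The groups did not overlap for either gene, and Yap-activated 3 stood well above Yap-activated 1 for Cyp26b1, whose log2 fold change was 4.10 (SE 0.69, edgeR adjusted p = 0.00188) and 3.32 without Yap-activated 3. Cyp26c1 had 11 counts over all 6 libraries and was not tested.

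The bases before the start of the Cyp26 genes are shown because retinoic acid receptors act on Cyp26a1 there. They are RefSeq sequences on GRCm38.p6 that end where the annotated gene begins, for Cyp26a1 at chr19:37697558-37697797 on the plus strand and for Cyp26b1 at chr6:84593909-84594060 on the minus strand. Capitals mark a match to a retinoic acid response element, a direct repeat of AGTTCA with 5 bases between its copies.
Cyp26a1: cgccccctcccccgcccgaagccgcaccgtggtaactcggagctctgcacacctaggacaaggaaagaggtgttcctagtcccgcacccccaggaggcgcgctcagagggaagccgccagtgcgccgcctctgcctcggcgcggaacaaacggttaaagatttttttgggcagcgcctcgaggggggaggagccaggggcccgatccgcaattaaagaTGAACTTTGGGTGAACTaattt
Cyp26b1: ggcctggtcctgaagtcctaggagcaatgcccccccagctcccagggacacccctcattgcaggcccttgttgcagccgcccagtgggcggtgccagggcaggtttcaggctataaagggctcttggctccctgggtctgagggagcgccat
The repeat, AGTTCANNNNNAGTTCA on either strand, was searched in the 250 bases before each start and was chosen after the Cyp26a1 sequence was seen. It was present in 7 of 32851 RefSeq promoters (0.0213%), and in 1 of the 77 P450 genes with a sequence, Cyp26a1, at -32 to -16 from the RefSeq start. The Cyp26a1 sequence shown ends 10 bases before that start, where the annotated gene begins, and the Cyp26b1 sequence 98 bases before its own. The spacing of 2 bases, AGTTCANNAGTTCA, was present in 3 promoters and in no P450 gene. The Cyp26b1 window held neither.

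Genes that make, carry and read retinoic acid did not move in 1 direction. Of 22 listed partners 17 were tested, of which 8 fell and 5 rose (47.1% and 29.4%, against 29.7% and 29.8% of all genes). Of the oxidising enzymes, Adh1, an alcohol dehydrogenase that can oxidise retinol, fell by 4.04 (SE 0.22) and Aldh1a1, a retinal dehydrogenase, by 2.94 (SE 0.18), while Rdh10, a retinol dehydrogenase that embryos need, rose by 3.88 (SE 0.14) and the retinal dehydrogenase Aldh1a3 by 4.22 (SE 0.14). Rdh10 stood at 37.0, 42.9 and 38.1 CPM in Normal and at 615, 518 and 605 CPM in Yap-activated libraries. Aldh1a1 stood at 387, 404 and 482 CPM in Normal and at 66.6, 45.6 and 53.3 CPM in Yap-activated libraries. Neither overlapped. Among the carriers, Stra6, the retinol uptake receptor, rose by 3.62 (SE 0.93), while Rbp2 fell by 3.19 (SE 0.37). Stra6 was 4.62 without Normal 2 and lost its call without Normal 1 or Normal 3 (edgeR adjusted p = 0.0502 and 0.0545). Among the receptors, Rarb rose by 2.05 (SE 0.43) and Rarg by 0.75 (SE 0.10), and Rara fell by 0.65 (SE 0.11). The partners outside Adh1, Rdh10 and Aldh1a3 were named after their values were seen.

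**Figure D3:**
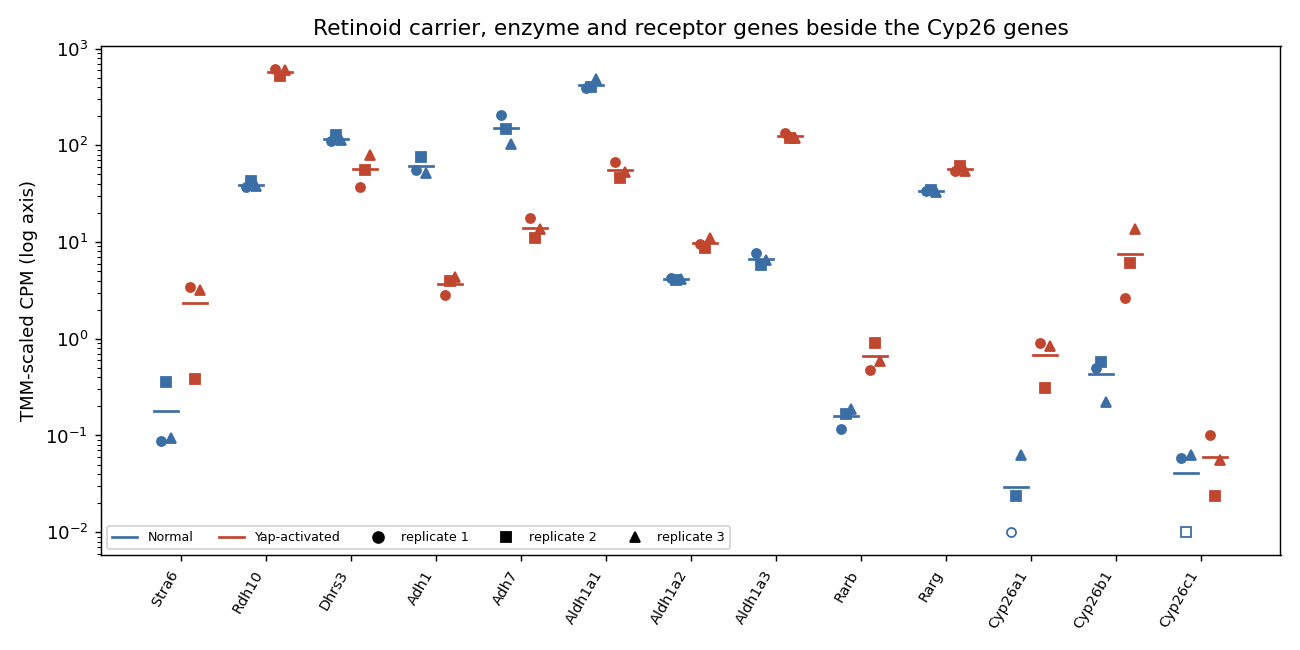
TMM-scaled CPM (y axis, log scale) of each library for retinoid carriers, enzymes and receptors beside the Cyp26 genes (x axis); marks are libraries, hollow marks at the bottom are libraries at 0, lines are group means. Adh1, Adh7 and Aldh1a1 are lower and Rdh10, Aldh1a3, Cyp26a1 and Cyp26b1 higher in every Yap-activated library than in any Normal one.

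RNA of both tested vitamin D-activating enzymes fell. Cyp27b1, which makes the hormonal form of vitamin D, stood at 4.81, 5.13 and 2.59 CPM in Normal and at 1.19, 0.692 and 0.595 CPM in Yap-activated libraries. The groups did not overlap, and the log2 fold change was -2.36 (SE 0.40, edgeR adjusted p = 0.00143). Cyp2r1, which carries out the hydroxylation before it and is best known from liver, stood at 0.961, 1.71 and 1.11 CPM in Normal and at 0.407, 0.716 and 0.614 CPM in Yap-activated libraries, a change of -1.11 (SE 0.37, edgeR adjusted p = 0.0333). The Cyp2r1 call was lost without Normal 2 (edgeR adjusted p = 0.152), Normal 3 (0.0673), Yap-activated 1 (0.0918) or Yap-activated 3 (0.0651), by DESeq2 (adjusted p = 0.0505), and with library totals alone (-0.62, edgeR adjusted p = 0.189). Cyp24a1, which inactivates the hormone and is a target of its receptor, was not tested, with 1 count over the Normal and 10 over the Yap-activated libraries, a ratio of 8.63 (exact 95% interval 1.23 to 375). Vdr, the receptor, rose by 2.48 (SE 0.38), from 0.957 ± 0.344 to 5.39 ± 1.89 CPM (SD, n = 3).

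Of 7 sterol and bile acid members, 5 were tested and 1 fell. Cyp39a1, an oxysterol hydroxylase of bile acid synthesis, stood at 24.7, 28.5 and 31.3 CPM in Normal and at 7.18, 12.8 and 13.7 CPM in Yap-activated libraries, with no overlap (log2 fold change -1.32, SE 0.24, edgeR adjusted p = 0.00220). Cyp51, the lanosterol demethylase of cholesterol synthesis, stood at 109.6, 168 and 162 CPM in Normal and at 101, 139 and 141 CPM in Yap-activated libraries, which overlapped (-0.21, SE 0.20, edgeR adjusted p = 0.389), and its sign turned to 0.28 when libraries were scaled by totals alone. The opposite-strand gene Akap9 overlaps 3.8% of Cyp51 exon bases. The 21 listed genes of cholesterol synthesis around Cyp51 were all tested, and 5 fell and 6 rose, near the shares of all genes, with 8 falls without Yap-activated 2. Dhcr7, of the last step, fell by 1.46 (SE 0.24), and Tm7sf2 rose by 0.80 (SE 0.12). Hmgcs1, the one with the highest CPM, fell by 0.90 (SE 0.21), but with library totals alone the value was -0.42 and not called (edgeR adjusted p = 0.150).

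Cyp27a1, the mitochondrial sterol hydroxylase, stood at 7.51, 3.99 and 4.87 CPM in Normal and at 2.78, 2.89 and 11.5 CPM in Yap-activated libraries. Yap-activated 1 and 2 were below all Normal libraries and Yap-activated 3 above them. The log2 fold change was 0.08 (SE 0.59, edgeR adjusted p = 0.915) over all libraries and -0.94 (edgeR adjusted p = 0.0404) without Yap-activated 3. The macrophage markers Adgre1 and Mrc1 were also highest in Yap-activated 3. They stood there at 13.0 and 25.8 CPM, against 2.31 to 6.20 and 5.82 to 11.9 CPM in the other libraries. Of the other listed macrophage markers, Cd68, Lyz2 and Cd14 were above all Normal libraries in every Yap-activated library, while Csf1r overlapped. Cd14 was highest in Yap-activated 1, at 401 CPM, and the others in Yap-activated 3. The part of macrophages in the Cyp27a1 values was not tested. Cyp46a1, best known from neurons, and the oxysterol hydroxylase Cyp7b1 stood at -0.80 and -0.54 and did not pass the threshold. Cyp7a1, the rate-limiting enzyme of bile acid synthesis in liver, and Cyp8b1, which sets the share of cholic acid, had 7 and 16 counts over the 6 libraries and were not tested.

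Family 1 holds 3 members, of which Cyp1b1, an Ah receptor target that hydroxylates oestrogens and pollutants, was tested. It stood at 8.68, 5.80 and 5.18 CPM in Normal and at 31.3, 9.83 and 8.16 CPM in Yap-activated libraries. Yap-activated 1 was far above the others, Yap-activated 3 lay below Normal 1, and the log2 fold change of 1.32 (SE 0.54, edgeR adjusted p = 0.0698) did not pass the threshold. It passed without Yap-activated 2 (1.57, edgeR adjusted p = 0.0487) or Yap-activated 3 (1.65, edgeR adjusted p = 0.0343), with library totals alone (1.81, edgeR adjusted p = 0.0160), and by DESeq2 (adjusted p = 0.00919). Cyp1a1, the classic target of the Ah receptor, had 3, 2 and 2 counts in Normal and 10, 2 and 2 in Yap-activated libraries, and Cyp1a2 had 7 counts in all. Of 6 other Ah receptor targets tested, 4 fell and 2 rose (66.7% and 33.3%, against 29.7% and 29.8% of all genes). Nqo1, a quinone reductase, fell by 2.17 (SE 0.23) from 741 ± 210 to 164 ± 18.5 CPM, and Aldh3a1, an aldehyde dehydrogenase, fell by 3.85 (SE 0.43) from 610.5 ± 164 to 42.5 ± 20.4 CPM (SD, n = 3). Tiparp, which modifies the receptor, rose by 1.71 (SE 0.21). Ahr rose by 1.15 (SE 0.38, edgeR adjusted p = 0.0362), with 33.1, 35.2 and 36.1 CPM in Normal and 34.2, 110 and 86.6 CPM in Yap-activated libraries, of which Yap-activated 1 lay among the Normal ones. The Ahr call was lost on leaving out any library other than Yap-activated 1 (edgeR adjusted p from 0.0945 to 0.102), and the number of targets that rose was 1 on leaving out any library other than Yap-activated 2.

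Family 2 held the most abundant member and fell widely: of 48 members 16 were tested, and 13 fell (81.2%, against 29.7% of all genes). By edgeR, DESeq2 and voom 0 rose, and by edgeR 0 did so at an unadjusted p below 0.05, while Cyp2t4 was called higher with library totals alone (1.35, edgeR adjusted p = 0.0147). Its summed RNA stood at 866, 994 and 1028 CPM in Normal and at 211, 552 and 513 CPM in Yap-activated libraries. Cyp2s1, an epithelial enzyme of surfaces in contact with the outside, stood at 569.5, 633 and 693 CPM in Normal and at 139.9, 407 and 414 CPM in Yap-activated libraries. All 3 Yap-activated libraries were lower than all Normal ones, yet the log2 fold change of -0.98 (SE 0.38, edgeR adjusted p = 0.0619) did not pass the threshold. Without Yap-activated 1 it was -0.61 and passed (edgeR adjusted p = 0.00850). DESeq2 and limma voom also called it (adjusted p = 0.00878 and 0.0412).

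Cyp2j6, a form known from the gut, stood at 136, 148 and 165 CPM in Normal and at 49.5, 90.9 and 68.5 CPM in Yap-activated libraries, with no overlap (-1.10, SE 0.21, edgeR adjusted p = 0.00273). Its neighbour Cyp2j9 changed by -1.12 (SE 0.32), and lost its call without Normal 1 or Yap-activated 1 (edgeR adjusted p = 0.0610 and 0.0506). Cyp2u1, a fatty acid hydroxylase, fell from 7.22, 8.43 and 11.6 CPM in Normal to 0.746, 0.382 and 0.335 CPM in Yap-activated libraries. The change of -4.26 (SE 0.37, edgeR adjusted p = 5.21e-05) was an 18.6-fold difference of means. An antisense gene, 4930534D22Rik, covers 10.5% of Cyp2u1 exon bases, and reads of both genes cannot be told apart if the counting ignored strand. Cyp2b10, a target of the xenobiotic receptor CAR, went from 5.42, 7.84 and 5.18 CPM to 0.474, 3.12 and 1.13 CPM (-1.95, SE 0.60, edgeR adjusted p = 0.0266). It was -2.88 without Yap-activated 2, and lost its call without Normal 1, Normal 2, Normal 3 or Yap-activated 3 (edgeR adjusted p from 0.0550 to 0.0832).

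The Cyp2c subfamily, which oxidises arachidonic acid and many drugs, has 15 members, and the 6 that were tested all fell (100%, against 29.7% of all genes). Cyp2c65, a form of the stomach and gut, stood at 107, 158 and 120.5 CPM in Normal and at 7.86, 38.6 and 14.8 CPM in Yap-activated libraries. Groups were well apart, with Yap-activated 2 the highest of its group, and the log2 fold change was -2.65 (SE 0.56, edgeR adjusted p = 0.00605), or -3.50 without Yap-activated 2. Cyp2c23, an epoxygenase known from kidney, went from 14.9, 16.7 and 12.1 CPM to 5.05, 4.01 and 6.06 CPM (-1.53, SE 0.21, edgeR adjusted p = 0.000486). The other 4 stood below 3 CPM in every library, and Yap-activated 2 was highest of its group for Cyp2c66, Cyp2c68 and Cyp2c70. Cyp2c55 changed by -1.98 (SE 0.56), Cyp2c66 by -1.92 (SE 0.53), Cyp2c68 by -2.71 (SE 0.82) and Cyp2c70 by -3.49 (SE 0.98). Their values moved to -2.62 for Cyp2c55 without Yap-activated 1, and without Yap-activated 2 to -2.58 for Cyp2c66, -3.91 for Cyp2c68 and -8.18 for Cyp2c70, which then has no count left in its group. Without Yap-activated 3, Cyp2c68 was -2.01 and Cyp2c70 -2.79. Each of the 4 lost its call without some library, with edgeR adjusted p of 0.0575 for Cyp2c55 (without Normal 1), 0.0549 and 0.0528 for Cyp2c66 (Normal 2, Normal 3), 0.0543 and 0.0526 for Cyp2c70 (Normal 1, Normal 3), and 0.0800, 0.0682 and 0.0504 for Cyp2c68 (Normal 2, Normal 3, Yap-activated 1). Cyp2c65 shares 20.6% of its 50-base stretches with other genes, Cyp2c66 19.5% and Cyp2c68 43.3%, so that paralogs may share reads.

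In the Cyp2d subfamily, of 8 members 4 were tested and 3 fell (75.0%, against 29.7% of all genes). Cyp2d26 went from 6.44, 7.22 and 6.07 CPM to 0.847, 1.46 and 0.911 CPM, with narrow groups far apart (-2.61, SE 0.28, edgeR adjusted p = 0.000138). Cyp2d22 changed by -1.40 (SE 0.39, edgeR adjusted p = 0.0152, but 0.0614 without Normal 1). Cyp2d10 changed by -2.33 (SE 0.68), with edgeR adjusted p = 0.0749 without Normal 3 and a value of -3.21 without Yap-activated 2, and 35.8% of its 50-base stretches are shared with other Cyp2d genes. Cyp2d34 and, outside the subfamily, Cyp2t4 had positive values (0.41 and 0.87) that did not pass the threshold.

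Many members lie side by side: 76 of the 100 fall into 10 chromosomal clusters, in which no member is more than 500 kb from the next (GRCm38). In the Cyp2c cluster at chr19:39007019-40187333, 14 members lie together and the 5 that were tested all fell. In the Cyp2d cluster at chr15:82370527-82794294, 3 of 4 tested members fell. Over all genes tested 29.7% were lower, and the falls of both clusters are those already counted by subfamily. In the Cyp4f cluster at chr17:32452723-32947402 neighbours went opposite ways, with log2 fold changes from -2.34 (Cyp4f15) to 7.0 (Cyp4f40) over 6 tested members. The cluster on chromosome 7 holds Cyp2s1, Cyp2b10 and Cyp2t4, with changes between -1.95 and 0.87.

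In family 3, which metabolises drugs and steroids in liver and intestine, 3 of 9 members were tested and none passed the threshold (0 by edgeR, DESeq2 or limma voom, and 0 by edgeR at an unadjusted p below 0.05). Cyp3a13 stood at 42.0, 47.0 and 16.6 CPM in Normal and at 28.9, 34.2 and 13.8 CPM in Yap-activated libraries, and replicate 3 was the lowest of each group (-0.46, SE 0.46, edgeR adjusted p = 0.419). Cyp3a11, the classic target of the xenobiotic receptor PXR, stood at 1.28, 0.119 and 0 CPM in Normal and at 6.68, 1.81 and 0.0186 CPM in Yap-activated libraries. The groups overlapped, and the log2 fold change was 2.58 (SE 1.72, edgeR adjusted p = 0.235). Cyp3a25, of which 26.8% of 50-base stretches are shared with paralogs, stood at 0.80 (SE 1.31). The enterocyte marker Sis was at 0 in Normal and at 0.474, 0.286 and 0 CPM in Yap-activated libraries, while Fabp2 stood at 7.34, 13.3 and 3.57 CPM in Normal and at 7.76, 5.30 and 0.409 CPM in Yap-activated libraries. Of 7 enterocyte markers 6 were tested, 2 of which rose (Alpi and Vil1; Alpi not without Normal 1, edgeR adjusted p = 0.0532). Apoa4 and Lct stood at -2.55 and -0.74 and did not pass the threshold. The list summed to 42.7 to 73.9 CPM in Normal and 106 to 168 CPM in Yap-activated libraries, most of it Vil1, which stood at 18.0, 41.4 and 27.1 CPM in Normal and at 78.5, 148 and 123 CPM in Yap-activated libraries. Their part in the Cyp3a values was not tested.

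Of 20 members of family 4, 10 were tested, of which 5 fell and 2 rose (50.0% and 20.0%, against 29.7% and 29.8% of all genes). Cyp4a32, of the fatty acid hydroxylases that PPAR alpha controls, had 45, 36 and 42 counts in Normal and 1, 0 and 0 in Yap-activated libraries, a ratio of 143 (exact 95% interval 25.1 to 5670, counting error only). Its fitted log2 fold change of -6.68 (SE 0.74, edgeR adjusted p = 0.000169) became -8.56 without Yap-activated 1 and -6.03 without Yap-activated 3. Of its 50-base stretches 43.8% occur in other genes, foremost Cyp4a10. Cyp4v3, a fatty acid hydroxylase known from the retina, went from 12.4, 15.2 and 13.4 CPM to 3.63, 4.51 and 7.24 CPM (-1.41, SE 0.26). Cyp4b1 and Cyp4f15 fell by 2.28 (SE 0.33) and 2.34 (SE 0.42) from levels below 2 CPM. Cyp4f13 changed by -1.02 (SE 0.32, edgeR adjusted p = 0.0282), with 19 CPM in Normal 1 below 19.7 CPM in Yap-activated 3, and its call was lost without Normal 2, Normal 3, Yap-activated 1 or Yap-activated 2 (edgeR adjusted p from 0.0616 to 0.0977).

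Cyp4f40 had 0, 1 and 0 counts in Normal and 29, 98 and 76 in Yap-activated libraries, a ratio of 175 (exact 95% interval 31.1 to 6950, counting error only). Its fitted log2 fold change was 7.0 (SE 0.77, edgeR adjusted p = 0.000155), and 8.92 without Normal 2, which holds the 1 Normal count. Beside it on chromosome 17, Cyp4f16 (19.2 ± 2.00 against 22.6 ± 1.74 CPM), Cyp4f17 (10.8 ± 1.04 against 13.2 ± 2.81 CPM; SD, n = 3) and Cyp4f39, of skin lipid synthesis, stood at 0.23, 0.29 and 0.99 and did not pass the threshold, though Cyp4f39 did without Yap-activated 1 (1.44, edgeR adjusted p = 0.0282). Cyp20a1, the orphan member, stood at 20.8 to 27.6 CPM in Normal and 23.8 to 30.5 CPM in Yap-activated libraries, which overlapped (0.18, SE 0.15, edgeR adjusted p = 0.330).

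Cyp4f18, which inactivates leukotriene B in neutrophils, stood at 0.874, 2.28 and 0.506 CPM in Normal and at 10.3, 1.67 and 17.6 CPM in Yap-activated libraries. Yap-activated 2 lay below Normal 2, and the log2 fold change was 2.99 (SE 0.91, edgeR adjusted p = 0.0257). It was lost without Normal 1 (edgeR adjusted p = 0.0813), Normal 3 (0.0893) or Yap-activated 3 (2.26, 0.0786), was 3.82 without Normal 2, and was not called by limma voom (adjusted p = 0.0926). The neutrophil receptor gene Csf3r had the same order among Yap-activated libraries, with 2.21, 1.40 and 1.83 CPM in Normal and 29.4, 7.92 and 44.8 CPM in Yap-activated libraries. S100a8, S100a9 and Ly6g had another order, with the highest level in Yap-activated 1 (218.5, 274 and 2.54 CPM) and the lowest of the group in Yap-activated 2. All 3 tested of 5 neutrophil markers rose, with sums of 6.90, 5.23 and 4.74 CPM in Normal and 525, 19.2 and 182 CPM in Yap-activated libraries, while Mpo was at or below 0.0678 CPM throughout. Csf1r of macrophages stood at 53.4, 21 and 90.0 CPM in the Yap-activated libraries, and the part of these cells in the Cyp4f18 values was not tested. An exon of Zfp961 on the opposite strand overlaps 9.8% of Cyp4f18 exon bases, and Zfp961 fell by 0.90 (SE 0.19).

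**Figure D4:**
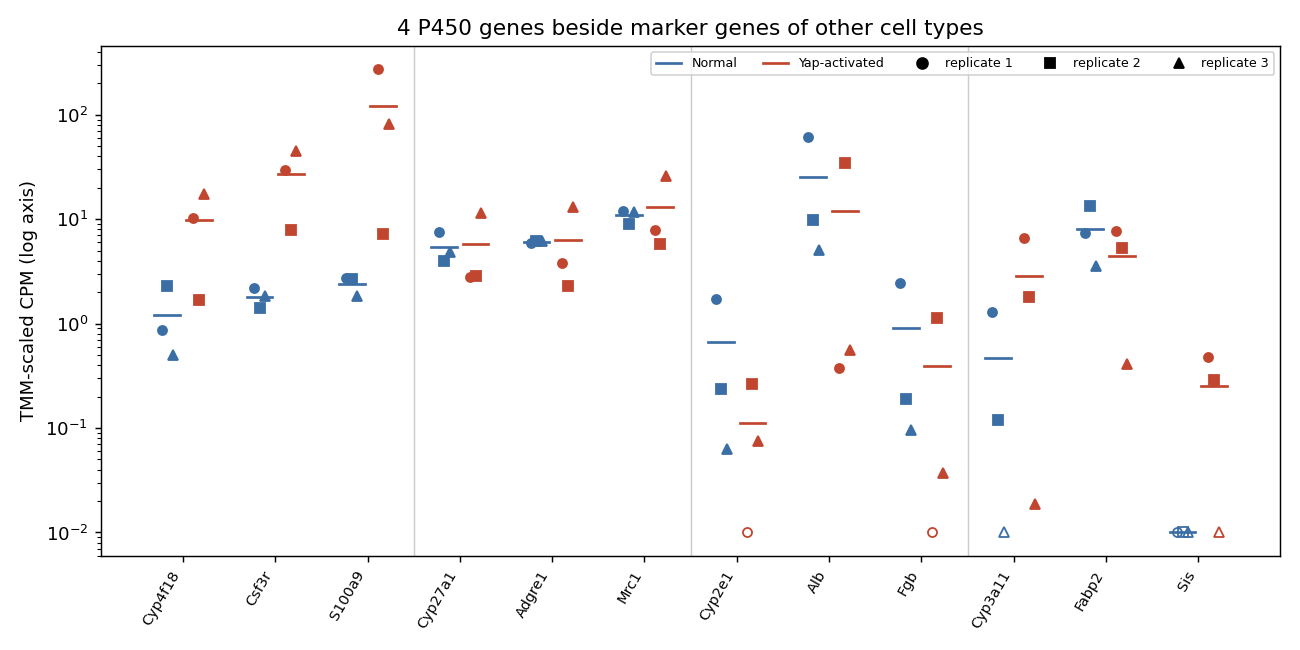
TMM-scaled CPM (y axis, log scale) of each library for 4 P450 genes, each followed by 2 marker genes of another cell type chosen after their values were seen (x axis); marks are libraries, hollow marks at the bottom are libraries at 0, lines are group means. Among the Yap-activated libraries Cyp4f18 and Csf3r are lowest in replicate 2, and Cyp27a1, Adgre1 and Mrc1 are highest in replicate 3.

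Of 12 listed electron donors and their helpers 11 were tested, of which 4 fell and 3 rose (36.4% and 27.3%, against 29.7% and 29.8% of all genes). Por, the reductase of all P450 enzymes of the endoplasmic reticulum, stood at 156, 203 and 189 CPM in Normal and at 158, 366 and 388 CPM in Yap-activated libraries, where Yap-activated 1 lay among the Normal ones. Its log2 fold change of 0.73 (SE 0.32, edgeR adjusted p = 0.0881) did not pass the threshold, and was 1.05 without Yap-activated 1 (edgeR adjusted p = 0.000688). DESeq2 called it over all libraries (0.74, adjusted p = 0.0243), as did edgeR with library totals alone (1.23, adjusted p = 0.0163). Cyb5b, the cytochrome b5 of the outer mitochondrial membrane, fell by 1.09 (SE 0.12) from 248 ± 27.3 to 117 ± 7.91 CPM. Fdxr, which feeds the mitochondrial enzymes, fell by 1.71 (SE 0.17) from 33.8 ± 7.59 to 10.3 ± 0.386 CPM, while its partner Fdx1 rose by 0.58. Cyb5r1 rose by 1.66 (SE 0.15), from 18.8 ± 2.53 to 59.4 ± 8.65 CPM (SD, n = 3).

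Of 13 genes of haem synthesis and breakdown, all tested, 7 fell and 3 rose (53.8% and 23.1%, against 29.7% and 29.8% of all genes). Alas1, the rate-limiting enzyme of haem synthesis, stood at 134 ± 15.3 and 120 ± 11 CPM (SD, n = 3) with overlap, a log2 fold change of -0.17 that did not pass the threshold and turned to 0.32 with library totals. Urod, of haem synthesis, fell by 1.12 (SE 0.13). Of the haem oxygenases that break haem down, Hmox2, the constitutive form, fell by 1.22 (SE 0.11), and Hmox1, the stress-induced form, rose by 3.17 (SE 0.24), from 7.34, 9.15 and 6.48 CPM in Normal to 57.9, 56.5 and 92.6 CPM in Yap-activated libraries.

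Among 28 listed regulators of P450 genes 25 were tested, of which 11 fell and 5 rose (44.0% and 20.0%, against 29.7% and 29.8% of all genes). The number that rose was 3 without Normal 1, Normal 2, Normal 3 or Yap-activated 3. Nr0b2 (SHP), the repressor of bile acid synthesis genes, fell by 7.67 (SE 0.34), from 16.2, 17.3 and 22.5 CPM to 0.0678, 0.143 and 0.0558 CPM. Ppara, the receptor behind Cyp4a expression in liver, fell by 5.33 (SE 0.34), from 6.87 ± 1.5 to 0.170 ± 0.0444 CPM (SD, n = 3). Nr1i2 (PXR) fell by 1.44 (SE 0.42, edgeR adjusted p = 0.0220), with 47.5, 46.2 and 35.0 CPM in Normal and 6.27, 21.9 and 19 CPM in Yap-activated libraries, but 0.0590 and 0.0625 without Normal 1 and Normal 2. Nr1i3 (CAR) was below 0.11 CPM in every library. Hnf4a, which drives many P450 genes in liver, stood at 153 ± 19.4 and 146 ± 29.1 CPM (SD, n = 3), a change of -0.06 that did not pass the threshold. Nfe2l2, an activator of detoxifying genes and the highest of the list in CPM, fell by 0.81 (SE 0.18), but with library totals alone the value was -0.31 and not called (edgeR adjusted p = 0.192).

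Of 10 listed partners that release or further process arachidonic acid, 9 were tested, of which 4 fell and 1 rose (44.4% and 11.1%, against 29.7% and 29.8% of all genes), with 0 rising without Normal 1 or Normal 3. Ephx2, which hydrolyses the epoxides that Cyp2c and Cyp2j enzymes make, fell by 1.77 (SE 0.20), from 74.6, 71.9 and 70.2 CPM to 28.9, 17.1 and 17.8 CPM. Pla2g4a, which frees arachidonic acid from membranes, fell by 1.11 (SE 0.12), and Ptgis, the prostacyclin synthase, which is itself a P450 enzyme by structure, fell by 1.54 (SE 0.27).

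The core of the TEAD motif, GGAATG on either strand, was present in the 250 bases before the start of 9 of 77 P450 genes and of 12.6% of 32851 RefSeq promoters. TEAD factors are the DNA-binding partners of Yap. Of the 34 tested members with a sequence 2 held it, Cyp2b10 and Cyp2j6, both lower, and none of the 4 higher members did. A match of letters is not a site, and no match says nothing of sites outside this window.

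The 58 members that were not tested had between 0 and 86 counts summed over the 6 libraries, and 16 of them had 0 in all libraries. Of the 58, 32 are of family 2. Cyp2e1, the alcohol-oxidising enzyme of liver, had the most, with 59, 10 and 2 counts in Normal and 0, 11 and 4 in Yap-activated libraries. Within each group its libraries had the same order as for Alb, the albumin gene of hepatocytes, which stood at 60.9, 9.91 and 5.03 CPM in Normal and at 0.373, 34.8 and 0.558 CPM in Yap-activated libraries. Of 12 hepatocyte markers 8 were tested, and Apoa1 and Ttr fell, which hold nearly all of the list sums of 1463 to 2205 CPM in Normal. The sums were 5.78 to 67.4 CPM in Yap-activated libraries. In Yap-activated 2, the highest of them, Alb was the largest part, with Apoa1 at 10.5 CPM and Ttr at 4.89 CPM. The other 6 (Alb, Apoa2, Ahsg, Tat, Cps1 and Hpx) stood between -1.70 and 0.16 and did not pass the threshold. Without Yap-activated 2, Alb (-5.71), Cps1 (-5.21), Ahsg (-4.93), Tat (-2.76) and Apoa2 (-2.29) were called lower (edgeR adjusted p from 0.00971 to 0.0405). The part of hepatocytes in the Cyp2e1 counts was not tested.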

How the data were processed

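The data were whole-number read counts per gene symbol, deposited by the authors without normalization, from TruSeq Stranded mRNA libraries read as 50 bp pairs. STAR 2.4.2a, DESeq2, GRCm38 and mm10 are listed in the submitters' processing notes. The counter, its strand setting and the annotation are not named in the sources used here. In R 4.3.3, edgeR 4.0.16 was run on them: filterByExpr (minimum count 10), TMM, and the robust quasi-likelihood test of 3 Yap-activated against 3 Normal libraries, with Benjamini-Hochberg adjustment over the 14600 genes tested and a threshold of 0.05. SE values were taken as the size of the log2 fold change over the root of F. Exon lengths, coordinates and shared 50-base stretches came from GENCODE mouse release 21, with 21523 of 21526 symbols found. Exact 95% intervals of count ratios cover counting error only.

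Named were all tested members of the steroid, sterol, vitamin D and retinoic acid groups or with a mean of at least 5 CPM, the 5 largest rises and falls, and of each partner list the 3 genes with the smallest p and that with the highest CPM. Other genes were named after their values were seen, and a few that the rule takes are not reported here. The members and lists were chosen with earlier results of these data known. The test was also run on simulated counts in which few genes were changed, unlike these data, so that run does not check the scaling. Alternatives were other scalings, filters and tests (DESeq2 1.42.0, voom of limma 3.58.1), a replicate block, and leaving out each library.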

Additional observations from a re-analysis of the deposited data

How the results depend on the processing

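The 21 lower P450 calls numbered 21 with DESeq2 size factors, non-robust dispersions and DESeq2, 22 with limma voom, 24 without a filter, 14 with a filter of 1 CPM in 3 libraries, and 15 to 20 when each library was left out. The 5 higher calls numbered 4 to 6 in all of these. With library totals alone they numbered 16 lower and 10 higher. That scaling moved the median of all genes tested from 0.01 to 0.51 and the share of higher among all calls from 50.0% to 76.6%, so its signs are relative to that shift. Cyp51 was then 0.28, Cyp3a13 0.0312 and Alas1 0.32, and the log2 ratios of summed CPM turned to 0.18 for family 3, 0.33 for family 4 and 0.16 for the sterol and bile acid members. Cyp27a1 turned to -0.0594 with voom, -0.21 with the replicate block, -0.11 without Normal 2, -0.000205 without Normal 3 and -0.94 without Yap-activated 3, its lowest, against 0.41 without Yap-activated 1, its highest. Cyp3a25 turned to -0.0596 with voom. With library totals the calls of Cyp2b10, Cyp2d22, Cyp2j9, Cyp2r1 and Cyp4f13 were lost (edgeR adjusted p from 0.0680 to 0.211), and Cyp1b1, Cyp20a1, Cyp2t4, Cyp4f16 and Cyp4f17 were called higher. The causes were not tested. With the replicate block 23 members were lower and 6 higher, Cyp3a11 (2.97, edgeR adjusted p = 0.00445) and Cyp3a13 (-0.42, edgeR adjusted p = 0.0171) among them. Same-numbered libraries did not deviate together (correlations 0.040, 0.0027 and 0.069), so that they share only a number. Of the 26 called members, 15 kept their call in every alternative that tested them.

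Among the partner lists, library totals moved lower and higher calls to 2 and 6 for electron donors and 6 and 11 for regulators. Sterol synthesis moved to 1 and 12. Lower calls moved to 4 for haem and 3 for steroid partners, and higher calls to 3 for arachidonic acid. Among all genes tested 76.6% of calls were then higher, against 50.0% in the main test, so these counts are relative to that shift. Whether any list moved beyond it was not tested. Sterol synthesis had 8 lower with the replicate block or without Yap-activated 2. Higher regulators numbered 3 with the 1 CPM filter, with voom, and without Normal 1, Normal 2, Normal 3 or Yap-activated 3. Higher Ah receptor targets numbered 1 with that filter, DESeq2 or voom, and without any library but Yap-activated 2. Higher arachidonic acid partners numbered 0 without Normal 1 or Normal 3. Depth limits the 58 members not tested and those below 1 CPM.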

Other observations

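Several members too rarely counted to be tested had unequal counts in the groups, given here as values chosen after they were seen. Cyp2a5, an oxidiser of coumarin and nicotine, had 2 counts over the Normal and 22 over the Yap-activated libraries, a ratio of 9.49 (exact 95% interval 2.33 to 83.3, counting error only), and it was higher in each Yap-activated library (12, 5 and 5 counts) than in any Normal one (1, 1 and 0). Cyp8b1, which sets the share of cholic acid among bile acids, had 2 against 14 counts, a ratio of 6.04 (1.39 to 54.8). Cyp4x1 had 2, 10 and 2 counts in Normal and 15, 7 and 14 in Yap-activated libraries, with overlap. In the other direction, Cyp2c29, a liver form, had 19 counts over the Normal and 2 over the Yap-activated libraries, a ratio of 11 (2.66 to 97.5), and Cyp2d12 had 15 against 2, a ratio of 8.69 (2.02 to 78.3).

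Cyp11b1 lies beside Gml2 on chromosome 15, and Gml2 exons on the opposite strand overlap 9.0% of its exon bases. Gml2 had 0, 0.0238 and 0 CPM in Normal and 2.75, 0.429 and 1.0 CPM in Yap-activated libraries, a log2 fold change of 6.79 (SE 1.13, edgeR adjusted p = 0.00144), which was 8.72 without Normal 2 and 5.90 without Yap-activated 1. The 12 counts of Cyp11b1 were found in Yap-activated 1 and 3, where Gml2 was highest. Reads of the overlap cannot be told apart if the counting ignored strand.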
